A study of Mus musculus with 20 samples.

Results

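Chromatin accessibility was followed at 10 epithelial genes of the mesenchymal-epithelial transition while mouse embryonic fibroblasts (MEFs) were reprogrammed with 2 factor pairs. The genes were Cdh1, Epcam, Esrp1, Grhl2, Cldn4, Cldn6, Cldn7, Krt8, Krt18 and Ovol1, taken from 21829 protein-coding genes. All ATAC-seq peaks within 20 kb of their gene spans were collected, which gave 997 peaks in 150 merged regions out of 335775 regions in all. In each library a region or promoter with a peak was called open and one without a peak closed, and promoters were the windows of 2 kb on both sides of every annotated start site (GENCODE M21, mm10). Of the 150 regions, 27 reached a promoter window and 123 were distal.

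Fibroblasts are mesenchymal cells, and reprogramming towards pluripotency passes through a mesenchymal-epithelial transition in which cells regain adherens and tight junctions and an epithelial keratin network. E-cadherin (Cdh1) is the adhesion molecule that defines this change and is also needed by embryonic stem cells (ESCs). The repressors SNAI1, SNAI2, ZEB1 and ZEB2 bind E-box sequences in promoters of epithelial genes and hold them silent in mesenchymal cells, while GRHL2 and OVOL1 favour the epithelial state.

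ATAC-seq, in which the transposase Tn5 cuts and tags accessible DNA, was made from untreated MEFs (1 library), from ESCs (3 libraries) and from MEFs transduced with retroviruses carrying Nanog+Oct4 or NanogN70+Oct4 (1 library each on days 0, 1, 3 and 5, then on days 7 and 8, and lastly on days 10 and 12). NanogN70, named NanogBiD in the study, is NANOG fused at its N-terminus to the short part of SS18 that recruits the BAF chromatin remodeler through BRG1. MEFs of both paths and the untreated MEFs carried the Oct4-GFP reporter OG2, as did the mice from which the ESCs were derived, and the fibroblasts came from E13.5 embryos. Day 0 was the end of the second infection. In the study's protocol the iCD3 medium was replaced, after 7 days or at another chosen time, by the 2iL medium in which the ESCs were also kept. The day of this change is not stated for these libraries.

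The 8 days of a path are successive samples of 1 time course and no day was replicated, so the tests compare these libraries over days and do not cover the spread between separate experiments. Calls of regions closed or open in MEFs rest on 1 library. The transduced cells are bulk populations, so a peak in few cells and a weak peak in all cells cannot be told apart. The cell type labels of the ESC samples name MEFs, whereas their titles name ESCs, and they were grouped by title. All 9 pluripotent cell markers looked at had an open promoter in each ESC library, against 4 in MEFs, and all 10 fibroblast markers were open in MEFs, against 6 or 7 in the ESC libraries. Depth is unknown. Peak numbers were 125451 in MEFs, 97417 to 115967 in ESCs, 48816 to 91728 with Nanog and 44098 to 107014 with NanogN70. The summit pileup, the number of tags stacked at a peak's highest point, was divided by the library's median pileup at the 14213 regions open in all 20 libraries to give a level. This median was 39 in MEFs, 29 to 38 in ESCs, 16 to 38 with Nanog and 16 to 60 with NanogN70. The highest was that of NanogN70 day 3, a library that had peaks at the promoters of all 10 leukocyte markers, against 2 to 5 in the other libraries of both paths, 6 in MEFs and 5 to 7 in ESCs. Of 10 epidermal markers, 1 to 4 were open with Nanog and 2 to 4 with NanogN70, with more open in NanogN70 on 6 of 8 days and fewer on none, against 4 in MEFs and 3 or 4 in ESCs. Their part in the results was not tested. Values without day 3 are given beside some of the counts that moved with it, and the part of that library's leukocyte signal in them was not tested.

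Of the 10 promoters, 3 were closed in MEFs and open in at least 2 ESC libraries (Epcam, Grhl2 and Cldn4), a pattern seen at 5.47% of all promoters. A further 6 had a peak in MEFs and in each of the 3 ESC libraries, against 64.1% of all promoters, and Ovol1 was closed in both. The window of 2 kb can hold several regions, and the start sites themselves gave a different count. The regions over the first start sites of Epcam, Esrp1, Grhl2, Cldn4 and Krt18 were closed in MEFs and open in all 3 ESC libraries. The MEF peaks counted for Esrp1 and Krt18 lay upstream of the start, at -1.5 and -1.6 kb. Cldn7 has several start sites. The first lay 4 bp from a region at +0.1 kb that was open on NanogN70 day 3 and in no other library. Another lay in an ESC-only region at +0.5 kb, and the last in a region at +1.9 kb that was also open in MEFs. With a window of 0.3 kb the number of ESC-only promoters was 5 (5.12% of all promoters), and it was 6 (5.78%) when weak peaks with scores under 100 were left out.

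Along the time course the member promoters were open on 33 promoter-days with Nanog and on 51 with NanogN70, of 80 possible in each path. Epcam, Cldn7, Cldn6, Cdh1, Ovol1 and Esrp1 (6 of 10) were open on more days with NanogN70 than with Nanog, against 11.9% of all promoters. In these windows none of the 10 was open on more days with Nanog, against 6.62% of all promoters, and 4 were open on equal numbers of days. Without day 3 the promoter-days were 32 and 42, and 5 promoters were then open on more NanogN70 days and 2 on more Nanog days, against 9.87% and 6.86% of all promoters. The count of 6 was 10 with scores of at least 100 (14.8% of all promoters), 9 with the same number of top-scoring peaks per library (10.9%) and 4 with a window of 0.3 kb (11.1%). With a window of 1 kb it was again 6, and 1 gene (Krt8) was open on more Nanog days (6.07%).

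**Figure D1:**
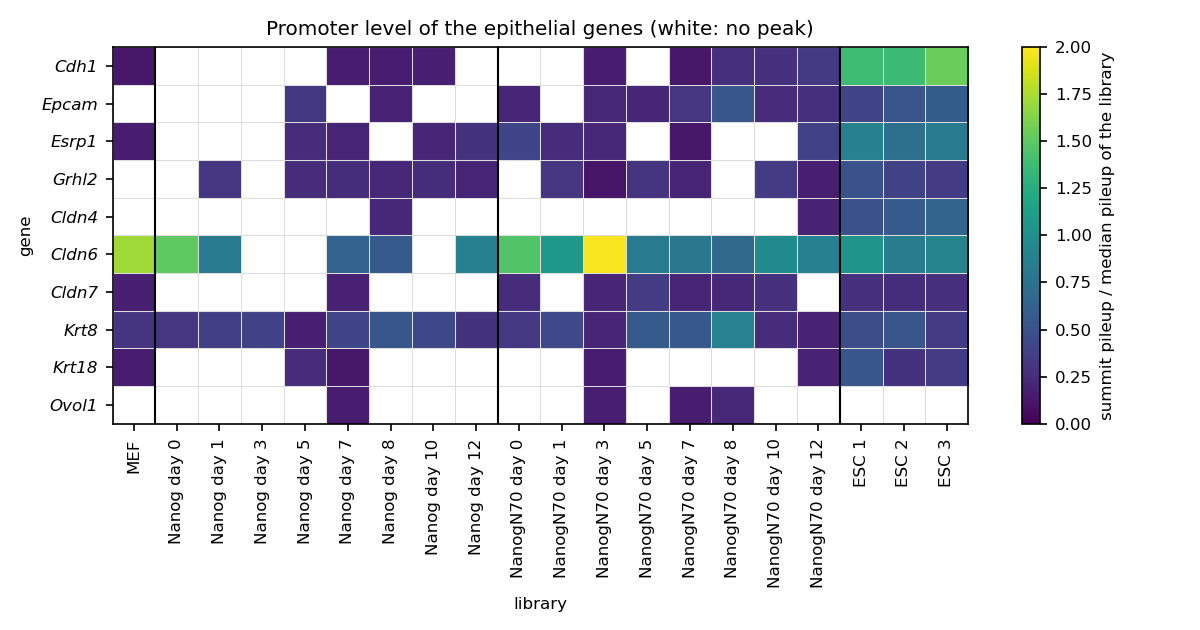
Promoter level of the 10 genes (rows) in the 20 libraries (columns), where the level is the highest summit pileup in the promoter windows divided by the library's median pileup at regions open everywhere, and white marks the absence of a peak. Cdh1 reaches 1.37 to 1.55 in ESCs and at most 0.341 in the time course, and Epcam has 2 filled cells with Nanog and 7 with NanogN70.

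**Figure D2:**
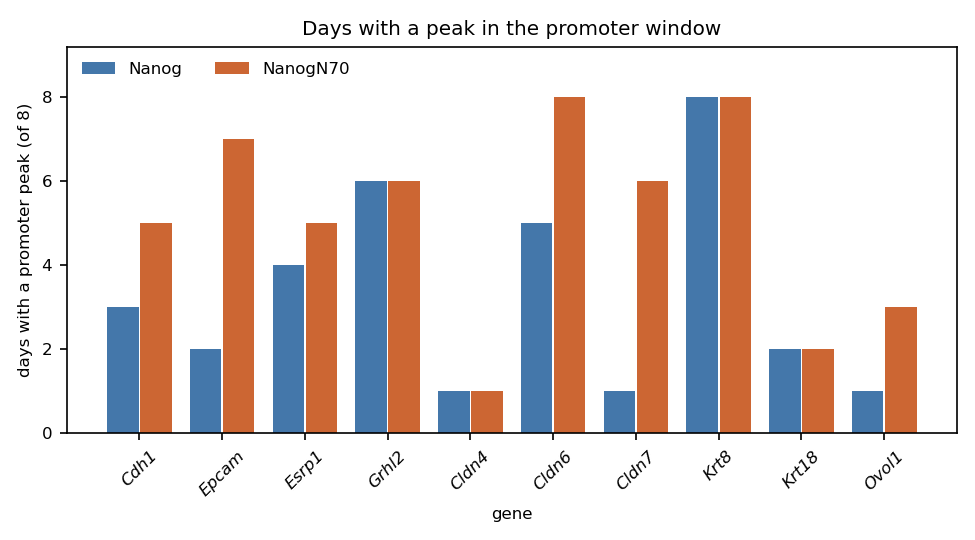
Number of the 8 days on which each gene had a peak in its promoter windows, with bars in blue for Nanog and in orange for NanogN70. Bars of both paths are equal for Grhl2, Cldn4, Krt8 and Krt18, and the NanogN70 bar is higher for the other 6 genes.

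The adhesion gene Cdh1 had the highest promoter level of the 10 genes in ESCs and a weak peak in MEFs. At Cdh1 (chr8:106603351-106670246, plus strand), the promoter region at +0.1 kb had a pileup of 5 tags in MEFs and of 44, 52 and 45 tags in ESCs. The level was 0.128 in MEFs and 1.43 ± 0.104 in ESCs (SD, n = 3). With Nanog the pileup was 6, 5 and 4 tags on days 7, 8 and 10, and there was no peak on the other days. With NanogN70 it was 9, 5, 7, 8 and 14 tags on days 3, 7, 8, 10 and 12. From day 8 on, the NanogN70 levels of 0.269, 0.286 and 0.341 were above the Nanog levels of 0.156, 0.174 and 0, and both were far below the lowest ESC level of 1.37. Over the 8 days the level was 0.0862 higher with NanogN70, which was 0.0498 without day 12 and 0.0317 when an absent peak was given the lowest pileup of its library. Both paths were closed on days 0, 1 and 5, and with the other 5 days alone the permutation test could not have passed.

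Of the 22 distal regions of Cdh1, 9 were closed in MEFs and open in ESCs, and 7 of these 9 had no peak on any day of either path. Among the 7 were 2 of 3 neighbours in an intron at +28.8, +29.4 and +30.1 kb, each open in all 3 ESC libraries, and the one at +30.1 kb had a peak of 14 tags on NanogN70 day 3 only. The distal ESC-only region with the highest mean score of all members lay at +71.8 kb, in intergenic DNA downstream of the gene. Its pileup was 22, 30 and 20 tags in ESCs, 6 tags on Nanog day 12, 6 tags on NanogN70 days 3 and 7, and there was no peak in MEFs. Another 2 distal regions, introns of Cdh1 at +22.8 and +52.9 kb, were open in MEFs and in no other library of the series. The regions at -3.9 and +21.7 kb, closed in MEFs and ESCs, were the ones open on 1 more Nanog than NanogN70 day.

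The 201 bp around the summit of the +71.8 kb region (chr8:106675020-106675220, GRCm38, plus strand) are shown because it was the ESC region of highest score. Capitals mark matches to any of 11 consensus motifs searched on both strands, here SOX (CATTGT, read as ACAATG) and TEAD (GGAATG), which occurred in 12.0% and 15.4% of the 335775 windows of this length.
Cdh1 +71.8 kb: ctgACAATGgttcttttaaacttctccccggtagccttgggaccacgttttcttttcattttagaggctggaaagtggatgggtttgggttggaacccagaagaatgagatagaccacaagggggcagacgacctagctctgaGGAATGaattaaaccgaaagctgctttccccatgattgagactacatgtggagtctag

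**Figure D3:**
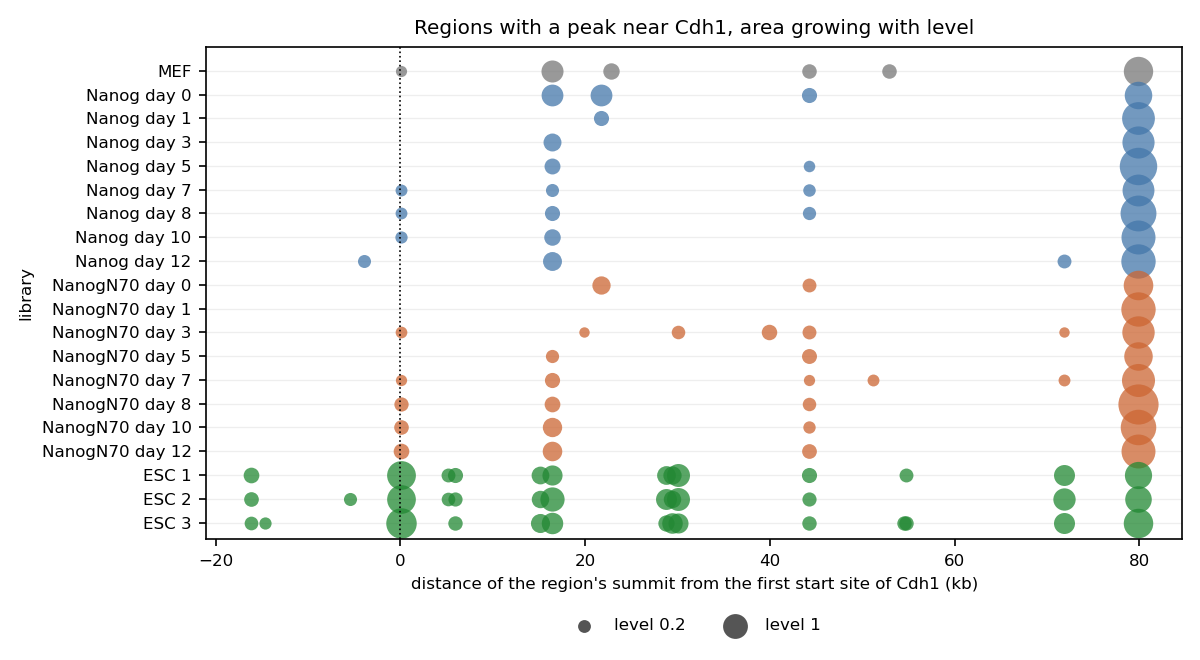
Regions with a peak near Cdh1 by distance of the summit from the first start site (horizontal axis, kb) in each library (rows, grey for MEF, blue for Nanog, orange for NanogN70, green for ESC), with the marker area growing with the level. The ESC-only regions between +5.2 and +71.8 kb have 4 markers in all in the time course rows, at +30.1 and +71.8 kb, and the column at +79.8 kb is the promoter of Tango6, open in all 20 libraries.

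Epcam encodes an epithelial adhesion molecule that is also a surface marker of ESCs. Its locus (chr17:87635979-87651129, plus strand) held 6 regions, of which 3 were ESC-only. The promoter region at -0.2 kb (chr17:87635621-87636055) had 13, 20 and 17 tags in ESCs, and 5 and 6 tags on NanogN70 days 7 and 12. It had no peak in MEFs or on any Nanog day. The second promoter region at +0.9 kb (chr17:87636452-87637283), which covers the start site of a shorter transcript and an exon, had 11, 10 and 8 tags in ESCs. On Nanog days 5 and 8 it had 9 and 6 tags and no peak on the other 6 days. With NanogN70 it had 5, 14, 5, 12, 14, 7 and 11 tags on days 0, 3, 5, 7, 8, 10 and 12, and no peak on day 1. The mean level at +0.9 kb was 0.0636 with Nanog and 0.254 with NanogN70, against 0.294 ± 0.0433 in ESCs (SD, n = 3), so the NanogN70 path was near the ESC level at this region and not at -0.2 kb, where its mean level was 0.0347 against 0.506 ± 0.0916 in ESCs.

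The difference in Epcam promoter level was 0.190 ± 0.159 (SD over 8 days), higher with NanogN70 on 6 days, lower on day 5 and equal on day 1, when both were closed. It was 0.184 without day 3, and 0.0816 when a missing peak was given the lowest pileup of its library.

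The remaining ESC-only region of Epcam lay in intergenic DNA at +28.4 kb (chr17:87664125-87664588). It was open in ESCs with 8, 10 and 5 tags, and closed in MEFs and on all 8 Nanog days. With NanogN70 it was closed on days 0, 1 and 3 and open on the 5 days from day 5 to day 12, with 6, 11, 9, 7 and 11 tags. No other distal ESC-only region of the 10 genes differed by as many days, and this one was chosen for that difference. It was open in 5 of the 16 time course libraries, under the 6 needed for a test. Day 3 had no peak here, so the count did not rest on that library.

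The 250 bases upstream of the first Epcam start site (RefSeq, GRCm38.p6, chr17:87635729-87635978, plus strand) and the 201 bp around the +28.4 kb summit (chr17:87664289-87664489, plus strand) are shown because both regions were open with NanogN70 and never with Nanog. Both held the E-box bound by SNAI and ZEB repressors (CAGGTG, or CACCTG on the other strand) at 2 places. The promoter further matched an SP GC-box (GGGCGG) and a KLF motif (GGGNGTGG), found in 32.7% and 15.9% of all promoter sequences. The distal window matched the AP-1 motif (TGANTCA) with the letters TGAATCA, and 17.3% of all region windows held a match to this motif.
Epcam promoter: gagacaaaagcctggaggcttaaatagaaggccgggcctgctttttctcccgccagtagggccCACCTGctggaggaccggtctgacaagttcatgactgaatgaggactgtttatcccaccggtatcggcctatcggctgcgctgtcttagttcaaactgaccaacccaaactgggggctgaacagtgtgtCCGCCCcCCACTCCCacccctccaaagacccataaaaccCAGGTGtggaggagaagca
Epcam +28.4 kb: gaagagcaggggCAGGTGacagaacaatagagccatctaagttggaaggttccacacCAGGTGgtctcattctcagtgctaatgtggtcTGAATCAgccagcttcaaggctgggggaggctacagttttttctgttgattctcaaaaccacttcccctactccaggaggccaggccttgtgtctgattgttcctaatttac

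Promoter sequences were at hand for 6 of the 10 genes (Epcam, Cldn4, Cldn6, Cldn7, Krt8 and Krt18, with 7 sequences in all), and the E-box was found in 6 of the 7 sequences and at least once for each of the 6 genes. It was found in 17.2% of 32851 promoter sequences of the same length. Letters alone do not show that a repressor is bound.

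**Figure D4:**
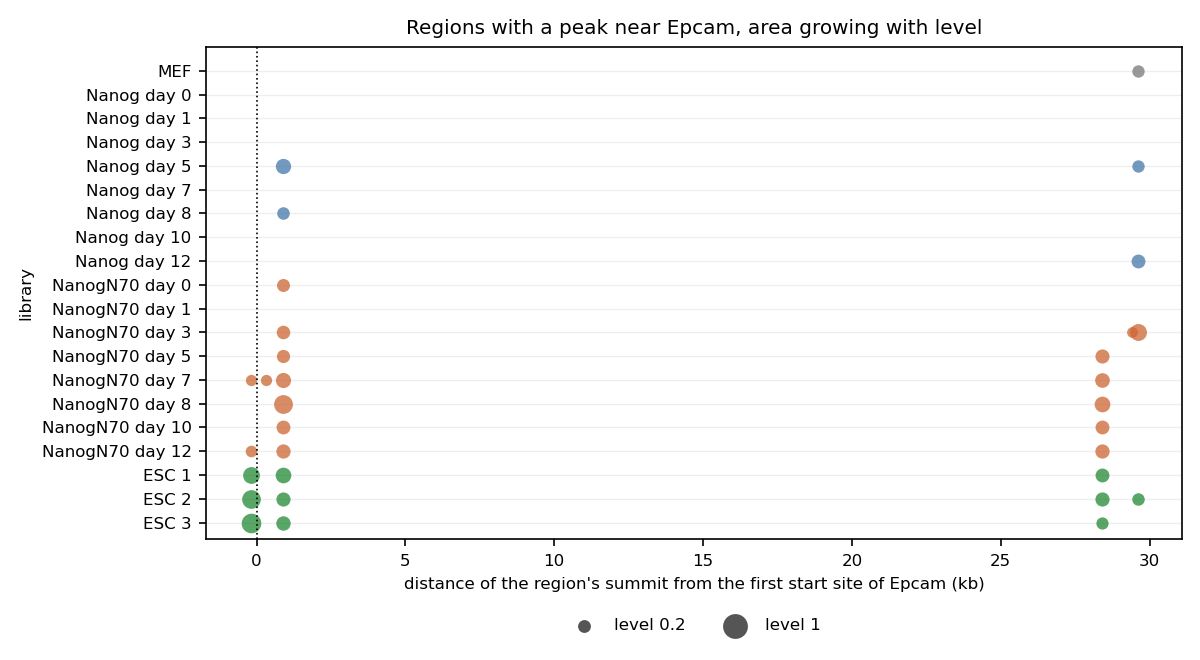
Regions with a peak near Epcam by distance of the summit from the first start site (horizontal axis, kb) in each library (rows, colours by group as for Cdh1), with the marker area growing with the level. The markers at +28.4 kb run from NanogN70 day 5 to day 12 and through the 3 ESC libraries, with none in the Nanog rows, and those at +0.9 kb fill 7 NanogN70 rows and 2 Nanog rows.

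The claudins seal tight junctions. Cldn4 (chr5:134945119-134946934, minus strand) was closed in MEFs and had 16, 22 and 19 tags in ESCs, a level of 0.578 ± 0.0776 (SD, n = 3). In the time course its promoter was open on 1 day in each path, with 7 tags on Nanog day 8 and 8 tags on NanogN70 day 12. Downstream, the ESC-only regions at +4.9 and +13.5 kb lay in promoter windows of Mettl27. The first had 37, 42 and 38 tags in ESCs and was open on 3 days in each path, with 6 to 13 tags. The second was open on 3 Nanog and 2 NanogN70 days, and with a region of Krt18 it was one of the 2 distal ESC-only regions of the members open on more Nanog days. Among regions closed in MEFs, the one at -13.7 kb, closed in ESCs too, was open on 3 Nanog days and 1 NanogN70 day, and those at +7.7 and +7.9 kb were open on NanogN70 day 3 alone. At this locus the largest difference in level between the paths lay upstream. The region at -12.3 kb (chr5:134958999-134959560, intergenic), the distal MEF-only region with the highest MEF score of all members, had 22 tags in MEFs and no peak in ESCs. With Nanog it was open on all 8 days, with 13, 20, 13, 7, 17, 28, 13 and 8 tags in day order. With NanogN70 it was open on days 0, 1 and 8, with 13, 8 and 6 tags, and closed on the other 5. Nanog was higher on each of the 8 days, and the difference NanogN70 minus Nanog was -0.478 ± 0.183 (SD over 8 days).

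A neighbouring region at -18.7 kb (chr5:134965418-134965850), open in MEFs and in 2 ESC libraries, was open on all 8 days of both paths. Its mean level was 0.919 with Nanog and 0.571 with NanogN70, and Nanog was the higher on all 8 days (exact permutation test over the signs of the daily differences, two-sided, p = 0.00781, the smallest possible, adjusted over 57039 regions 0.203). Scaled to the median of all peaks of a library, this difference no longer passed (exact permutation test, p = 0.0703).

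The 201 bp around the -12.3 kb summit (chr5:134959168-134959368, GRCm38, plus strand) are set beside the 250 bases upstream of the Cldn4 start site (RefSeq, GRCm38.p6, chr5:134946935-134947184, minus strand), since the distal region was lost and the promoter gained between MEFs and ESCs. The distal window held 1 AP-1 match (TGAGTCA). The promoter held 2 AP-1 matches (TGACTCA), 1 SP GC-box and 1 E-box.
Cldn4 -12.3 kb: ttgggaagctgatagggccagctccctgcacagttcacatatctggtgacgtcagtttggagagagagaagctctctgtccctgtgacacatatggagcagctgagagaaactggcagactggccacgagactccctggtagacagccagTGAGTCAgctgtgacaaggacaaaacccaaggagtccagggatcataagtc
Cldn4 promoter: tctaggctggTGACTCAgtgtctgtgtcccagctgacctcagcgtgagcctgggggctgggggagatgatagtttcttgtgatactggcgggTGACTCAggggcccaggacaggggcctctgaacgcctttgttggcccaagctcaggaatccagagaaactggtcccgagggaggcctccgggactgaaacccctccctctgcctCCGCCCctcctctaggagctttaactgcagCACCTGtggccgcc

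Cldn7 (chr11:69964779-69967885, plus strand) had 7 tags in MEFs and 9, 10 and 8 tags in ESCs in its promoter windows. With Nanog it was open on day 7 only, with 7 tags. With NanogN70 it had 6, 13, 8, 8, 6 and 8 tags on days 0, 3, 5, 7, 8 and 10, and no peak on days 1 and 12. The level was 0.170 higher with NanogN70 and no day was higher with Nanog. Filling absent peaks with the lowest pileup reduced the difference to 0.0559. Most of these peaks lay at +1.9 kb, open on 5 NanogN70 days and 1 Nanog day and also in MEFs, whereas the ESC-only region at +0.5 kb was open on 1 NanogN70 day and on no Nanog day. A region at +1.3 kb, closed in MEFs and ESCs, had 13, 8 and 6 tags on NanogN70 days 3, 7 and 8 and no peak with Nanog. The region at +0.1 kb had 10 tags on NanogN70 day 3 only. The distal ESC-only regions of Cldn7 at -9.0 and -4.0 kb, each open in all 3 ESC libraries, had no peak in the time course.

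For Cldn6 (chr17:23679249-23682446, plus strand) the window reached a broad region whose summit lay at -3.9 kb, inside the promoter windows of Hcfc1r1, Thoc6 and Tnfrsf12a. No region covered a start site of Cldn6 in any library. Within the window the pileup was 67 tags in MEFs and 33, 32 and 26 tags in ESCs. With Nanog it was 24, 13, 24, 18 and 21 tags on days 0, 1, 7, 8 and 12, with no peak on the other 3 days. With NanogN70 it was 35, 17, 119, 19, 30, 18, 27 and 36 tags in day order, the highest value being that of day 3. The level was higher by 0.534 with NanogN70, and by 0.327 without day 3. Measured over the whole region, it was open on 7 and 8 days and differed by 0.338 (exact permutation test, p = 0.133). Of the distal regions, the ESC-only one at -18.8 kb, in a promoter window of Bicdl2, had 16, 19 and 18 tags in ESCs, 6 tags on Nanog day 12 and 13 and 6 tags on NanogN70 days 3 and 10. The regions at +5.3 and +6.3 kb, both in a promoter window of Cldn9 and each open in 1 ESC library, were open on 2 NanogN70 days each and on no Nanog day. The MEF-only region at +4.2 kb, in an exon of Cldn9, kept a peak of 5 tags on Nanog day 0 and none afterwards.

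Krt8 and Krt18 encode the partner keratins of simple epithelia and lie side by side on chromosome 15. Krt8 was open in all 20 libraries, through an intronic region at +1.5 kb in all but 1 of them. Its level was 0.308 in MEFs, 0.447 ± 0.0927 in ESCs (SD, n = 3), 0.179 to 0.531 with Nanog and 0.195 to 0.885 with NanogN70, ranges that overlap, and the difference between paths did not pass the test (exact permutation test, p = 0.445). The region at the Krt8 start site itself had a peak in 1 ESC library and nowhere else. The MEF-only promoter region at -1.0 kb, with 5 tags in MEFs, was open on 4 Nanog days and 2 NanogN70 days. Krt18 had 6 tags in MEFs, from a region at -1.6 kb, and 17, 11 and 10 tags in ESCs at its start site. That start site region (chr15:102027993-102028345) was open on 2 days in each path, days 5 and 7 with Nanog and days 3 and 12 with NanogN70. Between the 2 genes, the MEF-only region at -6.4 kb from Krt8 was open on 4 Nanog days (5, 7, 11 and 8 tags on days 0, 3, 8 and 10) and on no NanogN70 day. The region at +27.0 kb from Krt8, with 49 tags in MEFs and 12 and 14 tags in 2 of the ESC libraries, was open on all days of both paths and differed by -0.436 (NanogN70 minus Nanog, exact permutation test, two-sided, p = 0.0391, adjusted p = 0.242). Leaving out any single one of days 0, 1, 3, 7 and 10 gave a difference of -0.425 to -0.353 with p = 0.0781, and scaling to the median of all peaks gave p = 0.117 (exact permutation tests). Upstream of Krt8, a region at -3.2 kb that was closed in MEFs and open in 1 ESC library had 9, 10 and 16 tags on Nanog days 5, 7 and 12 and 10, 14, 12, 11 and 15 tags on the 5 NanogN70 days from day 5 on. The MEF-only region of highest score near Krt18, at -11.8 kb, had 15 tags in MEFs and was open on day 0 in both paths and on no later day. The region at -10.1 kb from Krt18, closed in MEFs, had 12, 16 and 13 tags in ESCs, 5 tags on Nanog days 7 and 8 and 7 tags on NanogN70 day 7.

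GRHL2 activates epithelial genes, OVOL1 represses mesenchymal genes, and ESRP1 is the splicing factor that sets epithelial isoforms. Grhl2 (chr15:37233036-37363569, plus strand) was closed in MEFs and had 16, 15 and 10 tags in ESCs. Its windows were open on 6 days in each path, but never at the first start site, whose region (chr15:37232738-37233282) had no peak in any of the 16 time course libraries. The time course peaks lay at -0.4, +1.0, +1.5 and +100.8 kb. Of its 13 distal ESC-only regions, 11 had no peak in the time course and the other 2, at +5.8 and +31.3 kb, were open on 1 NanogN70 day each. The one of highest score, at +29.5 kb, had 16, 11 and 11 tags in ESCs and was among the 11. An intronic region at +5.5 kb, open in 1 ESC library, had 9, 6 and 7 tags on NanogN70 days 5, 7 and 12 and no peak with Nanog. The one at +10.9 kb, likewise open in 1 ESC library, was open on Nanog day 8 alone. Of the MEF-only regions of Grhl2, the one at +22.6 kb was open in MEFs alone. The MEF-only intronic region at +11.6 kb (chr15:37244384-37244728) had 10 tags in MEFs and none in ESCs. It had 8, 18, 19, 5, 9 and 6 tags on Nanog days 0, 1, 3, 5, 7 and 8, and 7, 16 and 6 tags on NanogN70 days 0, 1 and 3, and it was closed afterwards in both paths. The difference in level, NanogN70 minus Nanog, was -0.208, and -0.134 without day 3.

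The 201 bp around this summit (chr15:37244492-37244692, GRCm38, plus strand) are shown because this region was open early in both paths and then lost, and they hold 2 AP-1 matches (TGACTCA), at positions 31 and 51.
Grhl2 +11.6 kb: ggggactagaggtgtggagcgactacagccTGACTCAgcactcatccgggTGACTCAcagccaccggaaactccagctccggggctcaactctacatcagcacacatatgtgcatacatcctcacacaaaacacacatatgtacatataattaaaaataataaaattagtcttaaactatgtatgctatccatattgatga

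Esrp1 (chr4:11331933-11386783, minus strand) had 6 tags in MEFs and 28, 28 and 24 tags in ESCs in its windows, all at the region 1.5 kb upstream of the start. Its windows were open on Nanog days 5, 7, 10 and 12 and on NanogN70 days 0, 1, 3, 7 and 12, and the difference in level did not pass the test (exact permutation test, p = 0.5). The NanogN70 day 0 peak, of 10 tags, lay in the window of an internal start site, at +20.6 kb, in a region open in 1 library only. The region at -1.5 kb was open on 4 days in each path, so the extra NanogN70 day of Esrp1 rested on that peak. The region at its start site (chr4:11386520-11387066) was ESC-only, with 10, 19 and 13 tags, and closed in all 16 time course libraries. At -2.8 kb an ESC-only region with 20, 24 and 20 tags in ESCs was open on NanogN70 days 7 and 12, with 8 and 9 tags, and on no Nanog day. At +57.8 kb another was open on NanogN70 days 0, 3 and 5 and on no Nanog day. The MEF-only region of highest score near Esrp1, at +63.8 kb in a promoter window of Dpy19l4, had 12 tags in MEFs and 10 tags on NanogN70 day 0 only. Ovol1 (chr19:5549136-5560646, minus strand) was closed in MEFs and ESCs, and had 6 tags on Nanog day 7 and 10, 6 and 6 tags on NanogN70 days 3, 7 and 8. Its one distal ESC-only region, at -19.5 kb with 17, 18 and 9 tags, had no peak in the time course, a region at +28.0 kb was open on NanogN70 day 3 alone, and its MEF-only regions at +7.4 and +17.1 kb were open on day 0 in both paths and later only on Nanog day 5, at +17.1 kb.

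Over all 10 loci, 46 of 150 regions (30.7%) were ESC-only, against 16.5% of all regions, and 20 (13.3%) were MEF-only, against 22.2%. Most of the distal ESC-only regions stayed shut. Of 36, 25 had no peak on any day, 11 (30.6%) were open on a NanogN70 day and 5 (13.9%) on a Nanog day, and all 5 were among the 11. Over all ESC-only regions of the genome, promoter regions included, these shares were 30.8% and 17.3%. The distal sites of the epithelial genes were near these shares in both paths. More NanogN70 than Nanog days were seen at 8 of the 36 (22.2%), against 24.5% of all ESC-only regions, and more Nanog days at 2 (5.56%), against 5.8%. In region-days this was 23 against 10, of which 5 came from the +28.4 kb region of Epcam, and 17 against 9 without day 3. Without day 3, 10 of the 36 were open on a NanogN70 day and 5 on a Nanog day.

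Most of the 18 distal MEF-only regions were closed from day 1 on, with exceptions such as Cldn4 -12.3 kb, open on all 8 Nanog days. On day 0, 10 of the 18 were open in each path. Of all MEF-only regions, promoter regions included, 31.2% were open with Nanog and 36.5% with NanogN70. On day 1 this was 2 with Nanog and 3 with NanogN70, against 19.2% and 16.7%, so a drop was seen over all such regions too. From day 3 to day 12 there were 1 to 3 of the 18 open with Nanog and 0 to 2 with NanogN70, against 6.52% to 19.5% and 3.07% to 11.1% of all MEF-only regions. On any day, 10 (55.6%) were open with Nanog and 11 (61.1%) with NanogN70, against 45.4% and 44.5% of all MEF-only regions. Without day 3 the count was 10 in each path. AP-1 motifs were found in 10 of the 18 windows and in 5 of the 36 distal ESC-only windows, against 39.1% of all MEF-only and 6.21% of all ESC-only regions. The E-box was found in 1 of the 18 and 9 of the 36, against 4.72% and 23.3%.

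**Figure D5:**
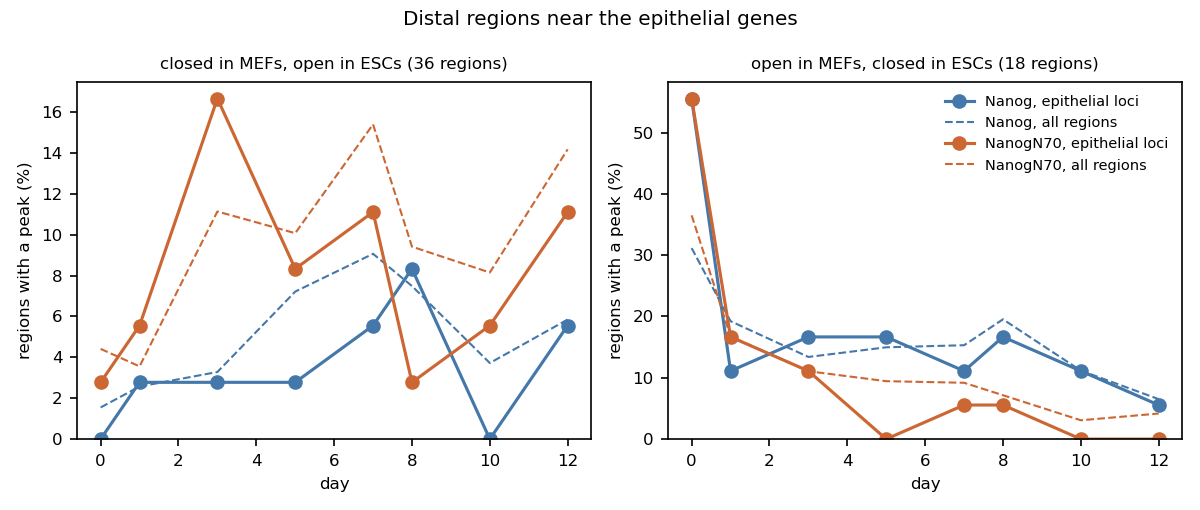
Share of distal regions with a peak on each day (per cent), left for the 36 ESC-only regions and right for the 18 regions with the opposite pattern. Solid lines with points are the loci of the 10 genes, and dashed lines are all regions of that pattern, promoter regions included. Blue and orange are Nanog and NanogN70. The highest point of the solid lines on the left is NanogN70 day 3 with 6 of 36 regions, and on the right both paths start at 10 of 18.

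Levels were also tested over the whole table. Of 7 member promoters with a peak in at least 6 of 16 time course libraries, 3 were higher with NanogN70 at an unadjusted p under 0.05 (Epcam, Cldn6 and Cldn7), against 8.19% of 14419 promoters tested, and 0 were lower, against 7.17%. Without day 3 the count of 3 was 1 (Cldn6), when 1033 of the 14419 promoters were higher and 907 lower. Of 34 regions tested, 1 was higher (Epcam +0.9 kb), against 6.8% of 57039 regions, and 4 were lower (Cldn4 -12.3 and -18.7 kb, Grhl2 +11.6 kb and Krt8 +27.0 kb), against 10.8%. Without day 3 the number of regions past this p, in both directions together, was 3. Of the regions named here, only Cldn4 -12.3 and -18.7 kb were among them. Over all 57039 regions, 2769 were then higher and 3991 lower. Epcam, Cldn6 and Cldn7, and Epcam +0.9 kb among the regions, reached the minimum of 6 libraries through their NanogN70 days alone, and Cldn4 -12.3 kb and Grhl2 +11.6 kb through their Nanog days alone. No p is given for these, and the counts are a description from which nothing is read. The balance of calls over the whole table moved with the scaling: 1181 promoters were higher and 1034 lower, which became 1006 and 302 when scaled to the median of all peaks, and 3878 regions were higher and 6167 lower, which became 2229 and 10161 when absent peaks took the lowest pileup and 4274 and 4394 with the median of all peaks. No promoter or region in the series passed at an adjusted p of 0.05 in the exact permutation test, where the lowest values were 0.237 and 0.203. Such a p cannot go under 0.00781 before adjustment with 8 days, and its lowest value is higher where both paths were closed on some of them.

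A list of 35 other epithelial genes (junction proteins, keratins, desmosome proteins and epithelial regulators) was looked at in the same way. Of these, 4 had an ESC-only promoter: Marveld2 and Marveld3 of tight junctions, the ETS factor Ehf and the integrin Itgb4. Over all promoters the share was 5.47%, and the count of 4 was 9 with scores of at least 100 (5.78% of all promoters), 15 with the same number of top-scoring peaks per library (7.42%) and 8 with a window of 0.3 kb (5.12%). Their promoters were open on 178 promoter-days with Nanog and 198 with NanogN70, of 280 in each path, with 12 genes open on more NanogN70 days, 4 on more Nanog days and 19 equal, where the shares over all promoters were 11.9% and 6.62%. Ocln, which encodes the tight junction protein occludin, was open on 2 Nanog and 7 NanogN70 days, Marveld2 on 0 and 4, Itgb4 on 1 and 5, Cldn9 on 1 and 4 and the desmosome gene Dsp on 5 and 8. The Cldn9 days came from peaks that were also described as distal regions of Cldn6. In the other direction, Prss8, a serine protease of epithelial membranes, was open on 6 Nanog days and no NanogN70 day, with a level of 0.615 in MEFs. It had enough peaks for a test through its Nanog days alone, so no p is given for it. Of the other genes of this list that were tested, none passed an unadjusted p of 0.05 in either direction.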

How the data were processed

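The authors trimmed ATAC-seq reads with Trim Galore (0.6.4), aligned them to mm10 with Bowtie2 (2.4.5), used SAMtools (1.16.1) to drop repeats, mitochondrial DNA and poorly mapped reads, and called peaks per library with MACS (1.4.2), keeping duplicates and without input, per the submitters' processing notes and the study's methods. The deposited score of a peak is its p-value as -10 log10, with 50 the lowest in the files. The deposited summit signal is the pileup in tags, a whole number not scaled to depth, so a weak site can be missed in a shallow library.

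Groups came from sample titles. Peaks sharing at least 1 bp were merged, and 525 peaks on other sequence names were left out. ESC-only means closed in MEFs and open in at least 2 ESC libraries, and MEF-only means a peak in MEFs with none in ESCs. Start sites came from GENCODE M21 protein-coding transcripts. Distances are from a gene's first start site to the summit, positive downstream. On all chromosomes the last peak lay inside the GRCm38 length. An absent peak had level 0. Paths were compared with exact two-sided permutation tests over all 256 sign patterns of the 8 daily differences, with Benjamini-Hochberg adjustment over all promoters or regions tested (Python 3.11.15, NumPy 2.4.6), and the code was tested on simulated data. Read numbers were not known, so no depth or counting interval is given.

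The members, lists and motifs were chosen with earlier results of these data known. The rule for names was, for each of the 10 genes, its promoter regions, its distal ESC-only region of highest mean ESC score, its distal MEF-only region of highest MEF score and its distal regions closed in MEFs with the largest difference in days open each way, and other epithelial genes with an ESC-only promoter or a difference of at least 3 days. Not all promoter regions, and not all regions that tied under this rule, are named. Other regions were named after their values were seen.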

Additional observations from a re-analysis of the deposited data

How the results depend on the processing

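Other peak sets, windows and sets of libraries changed the counts, and the promoter differences of Grhl2 and Krt8 changed sign in some settings. ESC-only promoters of the 10 genes numbered 3 and became 6 with scores of at least 100, 6 with the same number of top-scoring peaks per library and 5 with a window of 0.3 kb, an alternative chosen after seeing the data; the 4 of the other epithelial genes became 9, 15 and 8. The 36 distal ESC-only regions became 17 with equal peak numbers and 61 within 50 kb, and 26 to 30 without 1 ESC library. The excess of NanogN70 region-days at them (13) became 6 with equal peak numbers, 8 within 10 kb and 35 within 50 kb, and was 8 to 15 when 1 day or ESC library was left out. The difference at distal MEF-only regions (-9) became -5 within 10 kb and was -10 to -6 without 1 day. The excess of NanogN70 promoter-days (18) was 10 to 18 without 1 day, lowest without day 3. Leaving out 1 ESC library left both counts of ESC-only promoters at 3 and 4. The 3 promoters past an unadjusted p of 0.05 became 1 when an absent peak took the lowest pileup of its library, and were 1 to 3 without 1 day. The count of 5 regions was 3 to 5. All 3 promoters reached the minimum of 6 libraries through their NanogN70 days alone, as did some of the regions through 1 path, so nothing is read from these counts. The Grhl2 promoter difference, -0.00521, ranged from -0.0226 to 0.0253 without 1 day. It changed sign without day 7 (0.00156) or day 8, and the cause was not tested. The Krt8 promoter difference changed sign with a window of 1 kb (-0.109). That window left out the region at +1.5 kb and kept the MEF-only region at -1.0 kb, which differed by -0.109. The level tests paired the paths by day, and no replicate numbers are shared between groups.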

Other observations

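Some regions near the epithelial genes were open in the time course and in neither endpoint. There were 30 of these among 150 regions, against 38.7% of all regions. Of the 30, 25 were open on a NanogN70 day and 11 on a Nanog day, against 76.5% and 48.6% of all regions of this kind. Of the 30, 22 were seen in 1 library only, against 58.1% of all such regions. In NanogN70 day 3 alone, the library with the most leukocyte marker promoters open, were 13, against 13.8%. In at least 3 libraries 7 were open, against 25.5%. Of these, 2 lay downstream of Krt18: the one at +16.6 kb was open on 4 Nanog days and 2 NanogN70 days, none later than day 8, and the one at +14.0 kb on Nanog days 3, 5 and 7 and NanogN70 day 7. Another 2 lay at the Ovol1 promoter, at -0.4 and +0.6 kb, each on 1 Nanog day and 2 NanogN70 days. They were picked after their values were seen.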
